A study of Homo sapiens with 8 samples.

Results

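Polyamines are small positively charged molecules that growing cells need, and the 8 genes described here set their level: SAT1, ODC1, OAZ1, OAZ2, AZIN1, AMD1, SRM and SMS. All probe sets whose annotation gave exactly 1 of these symbols were taken, which gave 15 of 22215 probe sets tested and 8 of 11963 genes. ODC1, SRM and SMS had 1 probe set each, OAZ1, OAZ2 and AMD1 had 2, and SAT1 and AZIN1 had 3. A further SAT1 probe set also carries the symbol of another gene and was not used. The genes were selected on earlier results of these arrays, chiefly the log2 changes and adjusted p of SAT1 probe sets in THP-1 with diclofenac. Their changes are therefore given as descriptions with their errors, and no p-value is printed for them.

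The 8 arrays held 4 groups of 2. THP-1 and HL-60, each a single established human line of acute myeloid leukemia, had received diclofenac at 100 µM for 48 h, and cells given an equal amount of its solvent DMSO for 48 h were the controls of each line. Diclofenac is an anti-inflammatory drug that blocks the cyclooxygenases. The arrays of a group are titled biological replicates, with nothing further on how the cultures were separated, so the errors measure only the spread between these arrays. In each sample the RNA of all cells was measured together, so fewer cells of a type and less RNA per cell cannot be told apart.

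Polyamine synthesis starts with ornithine decarboxylase (ODC1), which makes putrescine. AMD1 makes decarboxylated S-adenosylmethionine, the donor with which SRM turns putrescine into spermidine and SMS turns spermidine into spermine. The antizymes OAZ1 and OAZ2 bind ODC1 and carry it to the proteasome, and the antizyme inhibitor AZIN1 holds antizyme away from it. SAT1 acetylates spermidine and spermine, which can then be exported or oxidised, and its gene is known to be strongly induced when polyamines are in excess and by many stresses and drugs.

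SAT1, SMS and OAZ2 had lower intensities on the THP-1 arrays than on the HL-60 arrays, and SAT1 had the largest log2 change of the 8 genes with diclofenac. Their promoter windows are therefore shown: the 250 bases before the annotated start site, from RefSeq on GRCh38.p14. These lie at chrX:23782923-23783172 on the plus strand for SAT1, at chrX:21940459-21940708 on the plus strand for SMS and at chr15:64703282-64703531 on the minus strand for OAZ2. They are written 5′ to 3′ along the gene, with capitals marking the motif matches named below.
SAT1: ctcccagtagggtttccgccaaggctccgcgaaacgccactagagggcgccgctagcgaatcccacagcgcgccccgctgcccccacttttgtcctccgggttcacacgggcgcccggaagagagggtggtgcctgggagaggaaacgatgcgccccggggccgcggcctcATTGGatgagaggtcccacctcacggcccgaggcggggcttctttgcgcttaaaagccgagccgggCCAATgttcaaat
SMS: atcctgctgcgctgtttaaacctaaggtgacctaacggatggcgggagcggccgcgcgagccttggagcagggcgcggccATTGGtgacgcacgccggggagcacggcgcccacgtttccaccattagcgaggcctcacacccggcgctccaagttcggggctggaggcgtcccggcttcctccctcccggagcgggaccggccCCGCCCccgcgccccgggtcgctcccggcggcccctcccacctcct
OAZ2: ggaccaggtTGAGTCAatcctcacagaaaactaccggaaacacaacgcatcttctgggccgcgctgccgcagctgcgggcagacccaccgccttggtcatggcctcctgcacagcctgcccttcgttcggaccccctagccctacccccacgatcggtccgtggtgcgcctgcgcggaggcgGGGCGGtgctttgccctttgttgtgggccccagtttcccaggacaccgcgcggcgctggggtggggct

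Each window was searched on both strands for 8 motifs. These were the AP-1 element TGACTCA, the cAMP response element TGACGTCA, the E-box CACGTG, the antioxidant response element TGACNNNGC, the amino acid response element TGATGNAAT, the CCAAT box CCAAT, the GC box GGGCGG and the TATA box TATAAA. AP-1 and antioxidant letters can overlap where TGACTCA is followed by GC. The SAT1 window held CCAAT boxes from 79 to 75 bases before the start on the reverse strand and from 13 to 9 bases before it on the forward strand, and no other match. The SMS window held 1 CCAAT box and 1 GC box, both on the reverse strand. The OAZ2 window held 1 AP-1 element on the reverse strand, from 241 to 235 bases before the start, and 1 GC box. Over 27305 windows of this length, 33.0% held a CCAAT box, 42.3% a GC box and 4.16% an AP-1 element. The E-box, which MYC and MAX bind, was in 6.49% of windows, and of the 7 members with a window only SRM had it. The others were in 11% (antioxidant), 11.1% (TATA), 1.77% (cAMP) and 0.916% (amino acid) of windows and in none of the 7. GC made up 66.4% of the SAT1 window, 72.8% of the SMS window and 67.2% of the OAZ2 window, against a median of 58.0%. A match is only a run of letters, and nothing here measured binding to it.

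The array labelled THP-1 DMSO replicate 2 stood apart. Its bacterial control probe sets, which have no target in human RNA, had a 95th percentile of 239, against 33.2 to 60.2 on the other 7 arrays. That percentile was taken as the background of each array, and 50.3% of probe sets exceeded it on this array, against 66.4% to 72.1% elsewhere. Where this array makes or ends a call, or moves a member's value most, the value without it is given too. Marker genes did not settle the line labels. On the DMSO arrays the promyelocyte granule genes AZU1, PRTN3 and MPO were higher in THP-1 than in HL-60 (log2 difference 2.47, 1.66 and 1.29), while MS4A3 (0.41), ELANE (0.27), SPI1 (-0.20) and CTSG (-0.35) differed less. Of the monocytic leukemia genes, FLT3 (2.93), CSF1R (1.24) and CD14 (0.57, above background on 3 arrays) were higher in THP-1, and MEIS1 (-0.99) and LYZ (-0.16) were lower. The lines are named here as labelled. Over 16 measured markers of T, B, erythroid, epithelial and fibroblast cells, the highest summed intensity of a cell type was 885.7, for the T cell markers on THP-1 DMSO replicate 2, against 101.4 to 228.6 on the other arrays. Of these 4 T cell markers 2 were above the high background of that array. The B cell (678.7), fibroblast (754.8), erythroid (490.2) and epithelial (420.4) sums were also highest on it. ALAS2, KRT19, EPCAM, COL3A1, CD3G and DCN were above background on no array, whereas HBB and COL1A1 were on 8. CD3E, CD2 and KRT8 were above background on 7 arrays, MS4A1 and COL1A2 on 6, CD79A on 4, CD3D on 3 and CDH1 on 2.

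SAT1 was higher with diclofenac in THP-1 in all 3 of its probe sets. Probe set 213988_s_at read 630.4 and 614.5 in THP-1 with diclofenac, against 114.1 and 130.2 with DMSO. Both diclofenac arrays lay far above both DMSO arrays, and the log2 change was 2.22 ± 0.24 (SE, n = 2 arrays per group), 4.65-fold on the scale of log2(intensity + 50) after quantile normalization. DMSO replicate 2, where this probe set was not above background, was normalized to 6.83 log2 units and replicate 1 to 7.55. The change was 1.95 without replicate 2, a 3.85-fold difference, and 1.97 on the deposited scale.

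Probe set 210592_s_at of SAT1 read 1486.7 and 1570.4 in THP-1 with diclofenac, against 642.7 and 685.5 with DMSO. The groups did not overlap and each pair of replicates lay close together. The log2 change was 1.12 ± 0.10 (2.17-fold) and 1.15 without DMSO replicate 2. The third SAT1 probe set, 203455_s_at, read 1816.5 and 1519.8 with diclofenac, against 906.4 and 741.2 with DMSO. Again the groups did not overlap, and the log2 change was 0.94 ± 0.14 (1.92-fold), or 0.81 without that replicate. In THP-1 18.7% of all probe sets were apart with diclofenac higher after normalization.

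In HL-60 the same 3 probe sets were also higher on both diclofenac arrays than on both DMSO arrays, by smaller amounts. Probe set 213988_s_at read 1358.9 and 1210.2 in HL-60 with diclofenac, against 999.9 and 871.5 with DMSO. Probe set 210592_s_at read 3167 and 3173.3, against 2187.4 and 2391.9. Probe set 203455_s_at read 3696.7 and 3255.9, against 2659.4 and 2729.1. None of the 3 had overlapping groups, where 20.1% of all probe sets were apart with diclofenac higher after normalization. The 3 probe sets read the same gene on the same arrays, so their agreement is not that of separate observations. The log2 changes were 0.42 ± 0.24, 0.43 ± 0.10 and 0.33 ± 0.14, at most 1.35-fold, and none passed the test over all probe sets.

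**Figure D1:**
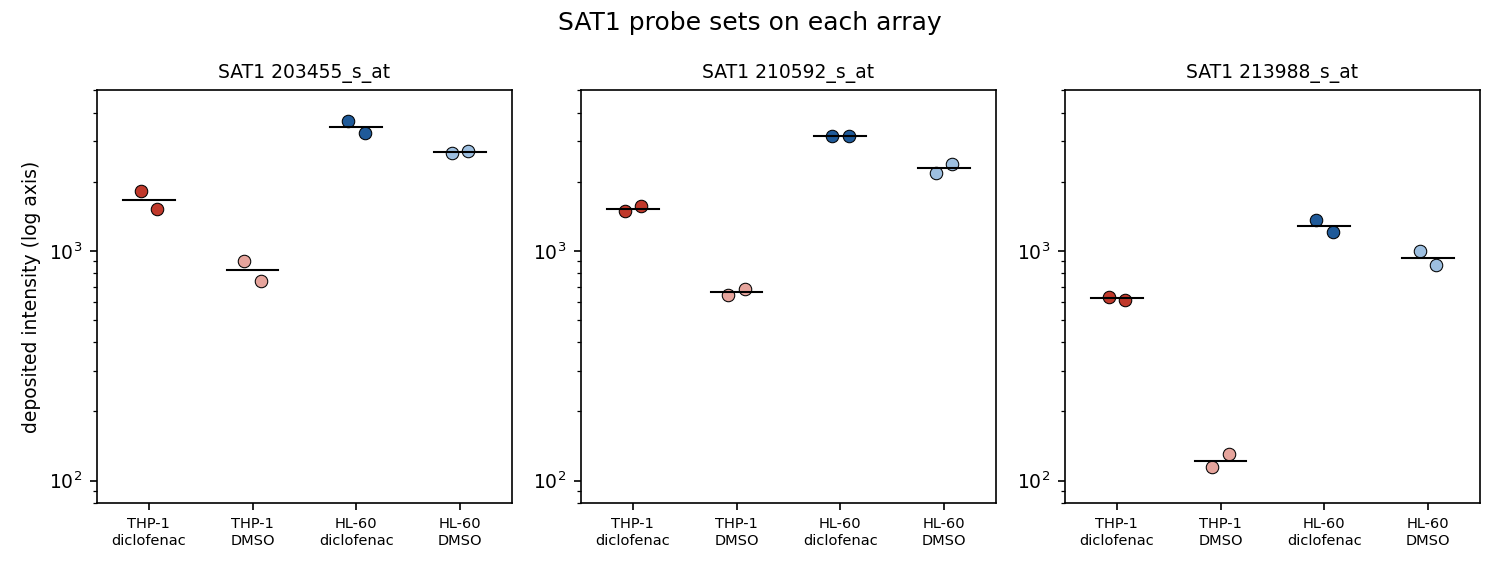
Deposited intensity (log axis) of the 3 SAT1 probe sets on each array, with 2 points per group and a line at the group mean. In each panel THP-1 with DMSO lies lowest and HL-60 with diclofenac highest, and the widest step is that of 213988_s_at between THP-1 with diclofenac (630.4 and 614.5) and THP-1 with DMSO (114.1 and 130.2).

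The order of the groups was the same in all 3 SAT1 probe sets, from HL-60 with diclofenac, highest, through HL-60 with DMSO and THP-1 with diclofenac to THP-1 with DMSO, and no neighbouring groups overlapped. Treated THP-1 cells stayed below untreated HL-60 cells: by mean, 210592_s_at read 1528.6 ± 59.2 in THP-1 with diclofenac and 2289.6 ± 145 in HL-60 with DMSO (SD, n = 2). The change in THP-1 exceeded that in HL-60 by 1.80 ± 0.34, 0.69 ± 0.14 and 0.61 ± 0.19 log2 units for 213988_s_at, 210592_s_at and 203455_s_at. Without THP-1 DMSO replicate 2 these differences were 1.52, 0.71 and 0.48. The log2 difference between the lines for 213988_s_at was -0.96 with diclofenac and -2.76 ± 0.24 with DMSO.

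Counted over all probe sets with limma and an adjusted p threshold of 0.05, 0 of the 15 member probe sets passed in HL-60, where 0.00450% of all probe sets did. In THP-1, 2 of 15 passed, both of SAT1 and both higher, against 0.135% of all probe sets (0.131% higher). For the difference of the changes 0 of 15 passed, against 0.00450% of all. Since SAT1 was known to differ in THP-1 before, nothing is read from these counts. At an unadjusted p under 0.05 the members numbered 2 in HL-60, 5 in THP-1 and 3 for the difference, among 1000, 2359 and 1542 of all probe sets. The THP-1 changes of 210592_s_at and 213988_s_at stayed between 1.07 and 1.5 and between 1.95 and 2.56 under the 15 alternatives run, but passed in only 6. They did not pass when either diclofenac array of THP-1 or any HL-60 array was left out, with THP-1 fitted alone, under median centring or without the intensity trend. Without THP-1 DMSO replicate 1, which leaves the array that stood apart as the control, the SAT1 changes in THP-1 were 2.56, 1.11 and 1.08. They exceeded those in HL-60 by 2.14, 0.69 and 0.76, for 213988_s_at, 210592_s_at and 203455_s_at. AMD1 201197_at changed by -0.32 in THP-1 there.

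The other 7 genes had small changes with diclofenac. Their 12 probe sets had a median log2 change of 0.02 in THP-1 and 0.05 in HL-60, and with SAT1 the 15 had 0.04 and 0.06, against -0.02 and 0.00 over all probe sets. In THP-1 the normalized values of the 2 groups did not overlap for 1 of the 12 with diclofenac higher and for 2 with diclofenac lower, where 18.7% and 20.9% of all probe sets were so. In HL-60 the numbers were 2 higher and 0 lower, where 20.1% and 19.1% of all probe sets were so.

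**Figure D2:**
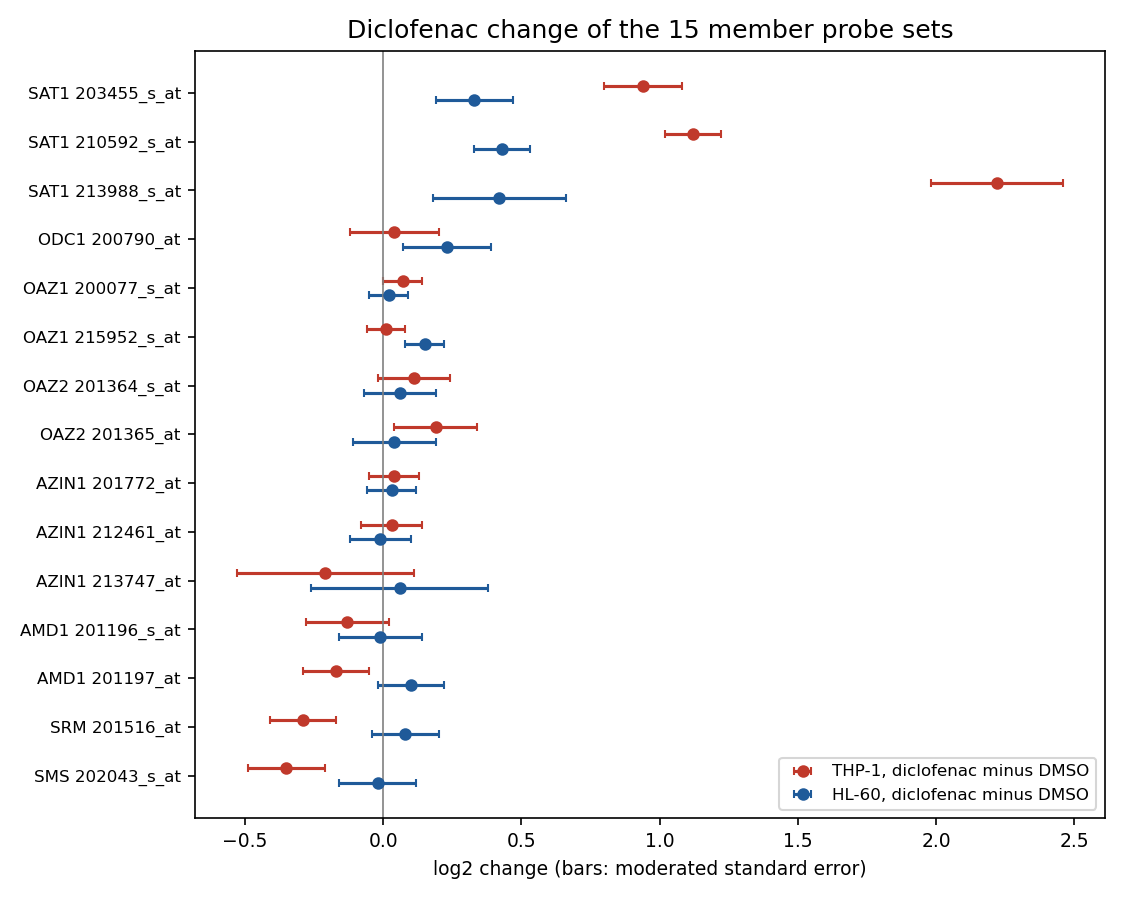
Log2 change of each of the 15 probe sets with diclofenac against DMSO (x axis), THP-1 in red above HL-60 in blue, with bars of 1 moderated standard error. The SAT1 probe sets lie at 0.94 to 2.22 in THP-1 and 0.33 to 0.43 in HL-60, and every other probe set lies between -0.35 and 0.23.

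ODC1, the first enzyme of the pathway, read 12130.2 and 12701.5 in THP-1 with diclofenac, against 10843.3 and 10407.2 with DMSO. In HL-60 it read 11633.6 and 12140.8 with diclofenac, against 10175.6 and 8438 with DMSO. On the deposited scale the diclofenac arrays lay above the DMSO arrays in both lines. After quantile normalization the groups overlapped in both, and the log2 change was 0.04 ± 0.16 in THP-1 (0.27 without DMSO replicate 2) and 0.23 ± 0.16 in HL-60. Neither passed the test.

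Scaling matters for bright genes in THP-1. Over all probe sets, the median change in THP-1 was -0.20 log2 units as deposited and 0.15 once each array was centred at its median, and among probe sets above background on all arrays it was -0.04 and 0.31. Relative to that last group, ODC1 changed by 0.08 in THP-1 after quantile normalization and by 0.27 on the deposited or median-centred scale, the same by construction. In HL-60 the median change of all probe sets stayed between -0.06 and 0.10.

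AMD1, which commits S-adenosylmethionine to polyamine synthesis, showed no separation by treatment in THP-1. Its probe set 201197_at read 3784.9 and 3534.9 in THP-1 with diclofenac, against 3760.5 and 3535.4 with DMSO, and 2565.8 and 2636.1 in HL-60 with diclofenac, against 2233.5 and 2512.1 with DMSO. The pairs overlapped in THP-1, while both HL-60 diclofenac arrays were slightly above the DMSO ones. Log2 changes were -0.17 ± 0.12 in THP-1 and 0.10 ± 0.12 in HL-60. The THP-1 value was -0.01 without DMSO replicate 2 and, relative to probe sets above background, -0.12 after quantile normalization and 0.05 on the other scales. The second probe set, 201196_s_at, changed by -0.13 ± 0.15 in THP-1 and -0.01 ± 0.15 in HL-60.

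The aminopropyltransferases had negative changes with diclofenac in THP-1 that did not pass the test and depended on the scaling. The spermidine synthase SRM read 2611 and 2594.7 in THP-1 with diclofenac, against 3063.3 and 2688.2 with DMSO, without overlap. Its log2 change was -0.29 ± 0.12, and -0.21 without DMSO replicate 2. The spermine synthase SMS read 784.4 and 1053.6 in THP-1 with diclofenac, against 1193.5 and 1060.3 with DMSO. These groups lay side by side with a narrow gap, and the log2 change was -0.35 ± 0.14, or -0.38 without that replicate. Relative to probe sets above background, the changes were -0.25 for SRM and -0.31 for SMS after quantile normalization, and -0.09 and -0.25 on the other scales. Under median centring the plain changes were positive, 0.22 for SRM and 0.06 for SMS, and relative to all probe sets SRM was at 0.07 there. The change of SMS was -0.15 when THP-1 diclofenac replicate 1 was left out, and -0.55 when the other diclofenac array was.

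In HL-60 neither enzyme was separated by treatment. SRM read 3688.1 and 4125.3 in HL-60 with diclofenac, against 3775.6 and 3321.6 with DMSO, a log2 change of 0.08 ± 0.12. SMS read 3050.9 and 3244.2 with diclofenac, against 2925.5 and 3328.9 with DMSO, a change of -0.02 ± 0.14. The changes in THP-1 minus those in HL-60 were -0.36 ± 0.16 for SRM and -0.34 ± 0.19 for SMS, and neither passed.

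Of the regulators of ODC1 protein, OAZ1 changed little with diclofenac. Its probe set 215952_s_at read 16955.7 and 16193.5 in THP-1 with diclofenac, against 17338.2 and 12189.1 with DMSO. In HL-60 it read 14880.1 and 18573.3 with diclofenac, against 12999 and 12884.2 with DMSO. The THP-1 groups overlapped because DMSO replicate 1 was the highest of the 4 arrays. Log2 changes were 0.01 ± 0.07 in THP-1 and 0.15 ± 0.07 in HL-60, and those of 200077_s_at were 0.07 ± 0.07 and 0.02 ± 0.07. Antizyme is made only when the ribosome shifts frame on its mRNA, which an array does not measure.

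OAZ2 read 858.1 and 993.8 in THP-1 with diclofenac at 201364_s_at, against 853.8 and 819.8 with DMSO. In HL-60 it read 1694.1 and 1558.1 with diclofenac, against 1593.5 and 1511.4 with DMSO. The treatments were close in both lines, with log2 changes of 0.11 ± 0.13 in THP-1 and 0.06 ± 0.13 in HL-60. At 201365_at the changes were 0.19 ± 0.15 and 0.04 ± 0.15, and the THP-1 value was 0.33 without DMSO replicate 2. AZIN1 was nearly level. Its probe set 212461_at read 2586.4 and 2666.3 in THP-1 with diclofenac, against 2434.8 and 2231.5 with DMSO, and 2986.4 and 2720.9 in HL-60 with diclofenac, against 2830.2 and 2745.6 with DMSO. The log2 changes were 0.03 ± 0.11 in THP-1 and -0.01 ± 0.11 in HL-60, and those of 201772_at were 0.04 ± 0.09 and 0.03 ± 0.09. The third AZIN1 probe set, 213747_at, was above background on only 4 arrays and its changes had errors of 0.32.

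**Figure D3:**
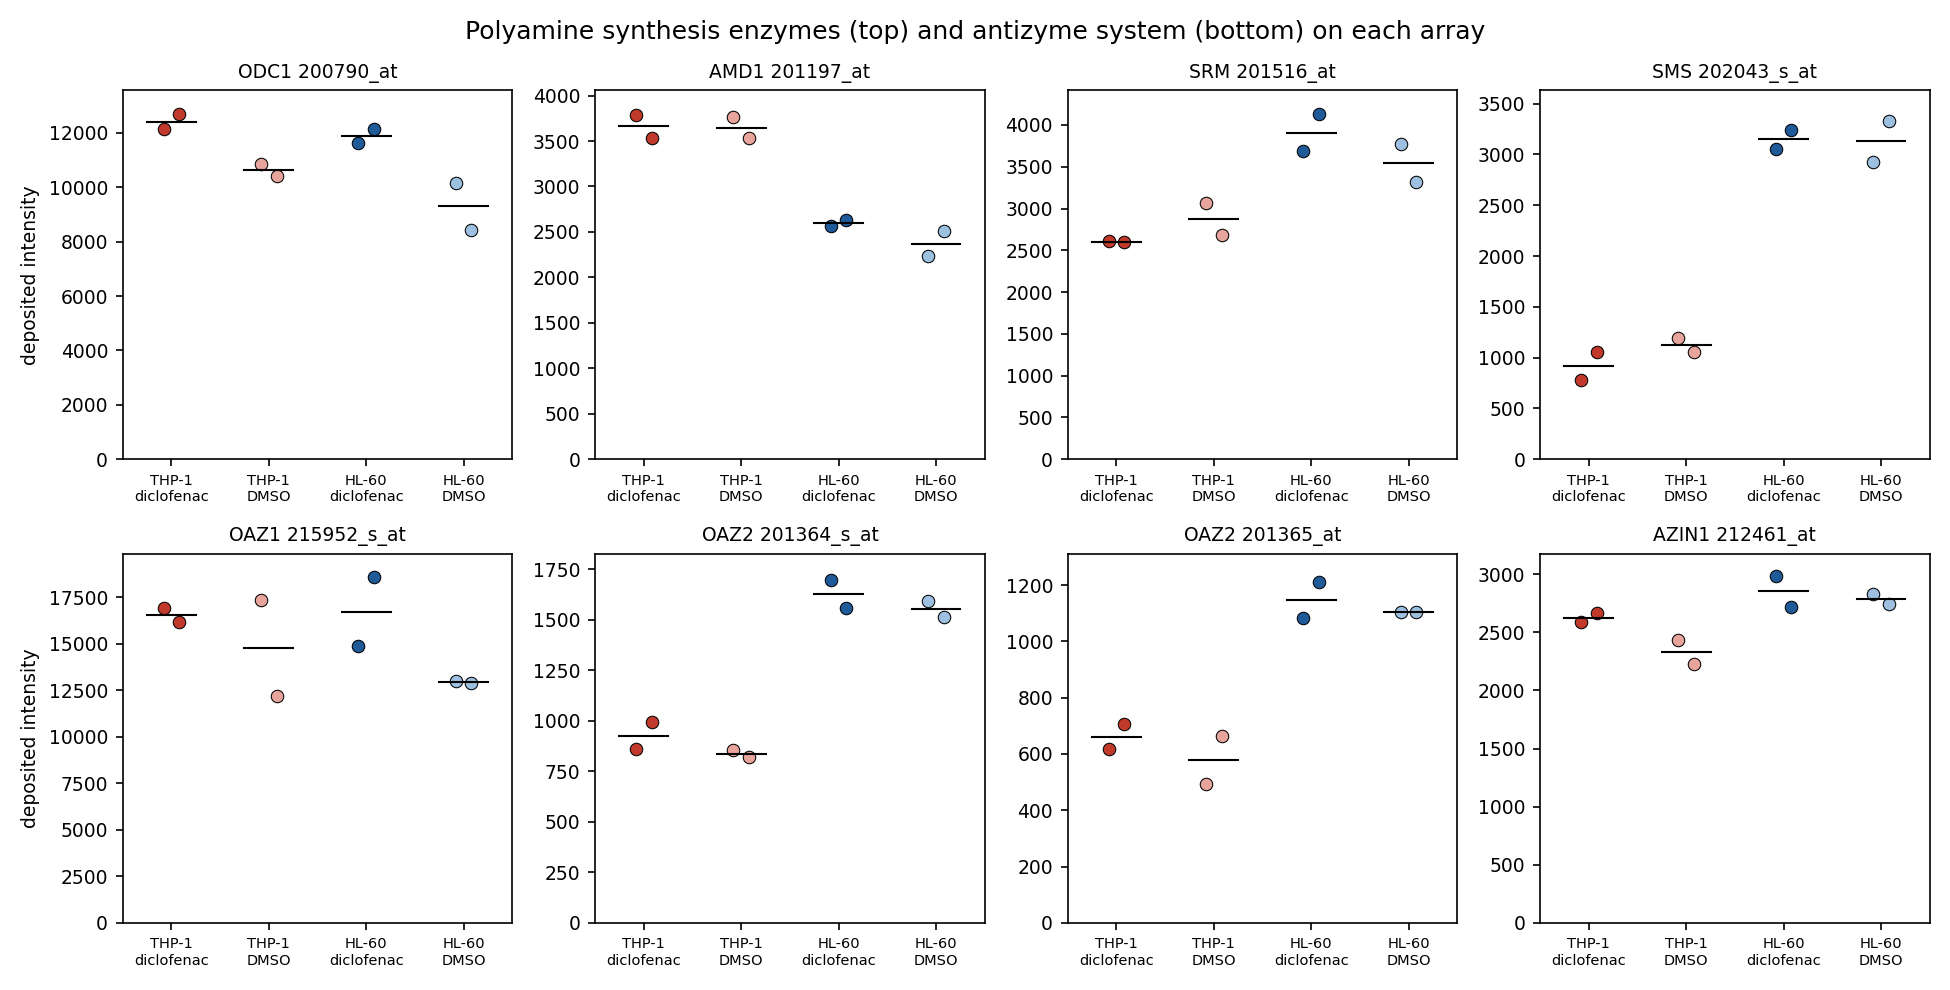
Deposited intensity of the synthesis enzymes (top row) and of the antizymes and AZIN1 (bottom row) on each array, with 2 points per group, a line at the mean and each axis starting at 0. SMS and both OAZ2 probe sets lie lower in both THP-1 groups than in both HL-60 groups and AMD1 lies higher, while the AZIN1 groups lie close together.

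The lines themselves differed more than the treatments. With DMSO, 9 of the 15 member probe sets passed for THP-1 minus HL-60, against 15.3% of all probe sets and 27.3% of those above background on all arrays. They belong to 5 genes: 3 were higher in THP-1 (2 of AMD1 and 1 of OAZ1) and 6 lower (3 of SAT1, 2 of OAZ2 and SMS), where 7.56% of all probe sets were higher and 7.72% lower. Under median centring 0 were higher and 4 lower, which were the SAT1 and SMS probe sets. Over all probe sets the number past the test fell there from 3396 to 1145. Groups of 5 member probe sets were apart with THP-1 higher and of 6 with THP-1 lower, where 24.7% and 24.8% of all probe sets were. The median difference of the members was -0.16, against 0.03 over all probe sets. SAT1, on which the members were selected, is part of these counts and of this median. Over the 12 probe sets of the other genes the median was 0.05, with 5 apart with THP-1 higher and 3 with THP-1 lower.

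SMS averaged 1126.9 ± 94.2 in THP-1 with DMSO and 3127.2 ± 285 in HL-60 with DMSO (SD, n = 2), a log2 difference of -1.38 ± 0.14, 2.61-fold lower in THP-1. With diclofenac the difference was -1.72. SAT1 was 3.16-fold lower in THP-1 with DMSO at 203455_s_at (-1.66 ± 0.14), 3.31-fold at 210592_s_at (-1.72 ± 0.10) and 6.75-fold at 213988_s_at (-2.76 ± 0.24). Without THP-1 DMSO replicate 2 the last was -2.50. SMS and the 3 SAT1 probe sets passed in all 14 alternatives run for this comparison. SAT1 had been selected on a comparison with the same THP-1 DMSO arrays, so its low level there is a description and supports nothing. With diclofenac the SAT1 differences between the lines were -1.05, -1.03 and -0.96, so the 3 probe sets gave nearly the same value there.

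OAZ2 averaged 836.8 ± 24 in THP-1 with DMSO and 1552.4 ± 58.1 in HL-60 with DMSO at 201364_s_at, a log2 difference of -0.84 ± 0.13 (1.79-fold lower in THP-1). At 201365_at it was -0.88 ± 0.15, and the lines did not overlap in either treatment. AMD1 went the other way: 201197_at averaged 3648 ± 159 in THP-1 with DMSO and 2372.8 ± 197 in HL-60 with DMSO, a log2 difference of 0.73 ± 0.12 (1.66-fold higher), which was 0.58 without THP-1 DMSO replicate 2. Its 201196_s_at differed by 0.52 ± 0.15 and did not pass without that replicate, at 0.43. OAZ1 215952_s_at differed by 0.26 ± 0.07, passed in 4 of 14 alternatives, did not pass without THP-1 DMSO replicate 2 (0.24) and was -0.07 under median centring. The differences of ODC1 (0.27 ± 0.16), SRM (-0.20 ± 0.12) and AZIN1 (-0.16 ± 0.11 at 212461_at) did not pass. That of ODC1 was -0.04 under median centring, 0.04 without THP-1 DMSO replicate 2, and 0.50 and past the threshold without replicate 1.

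**Figure D4:**
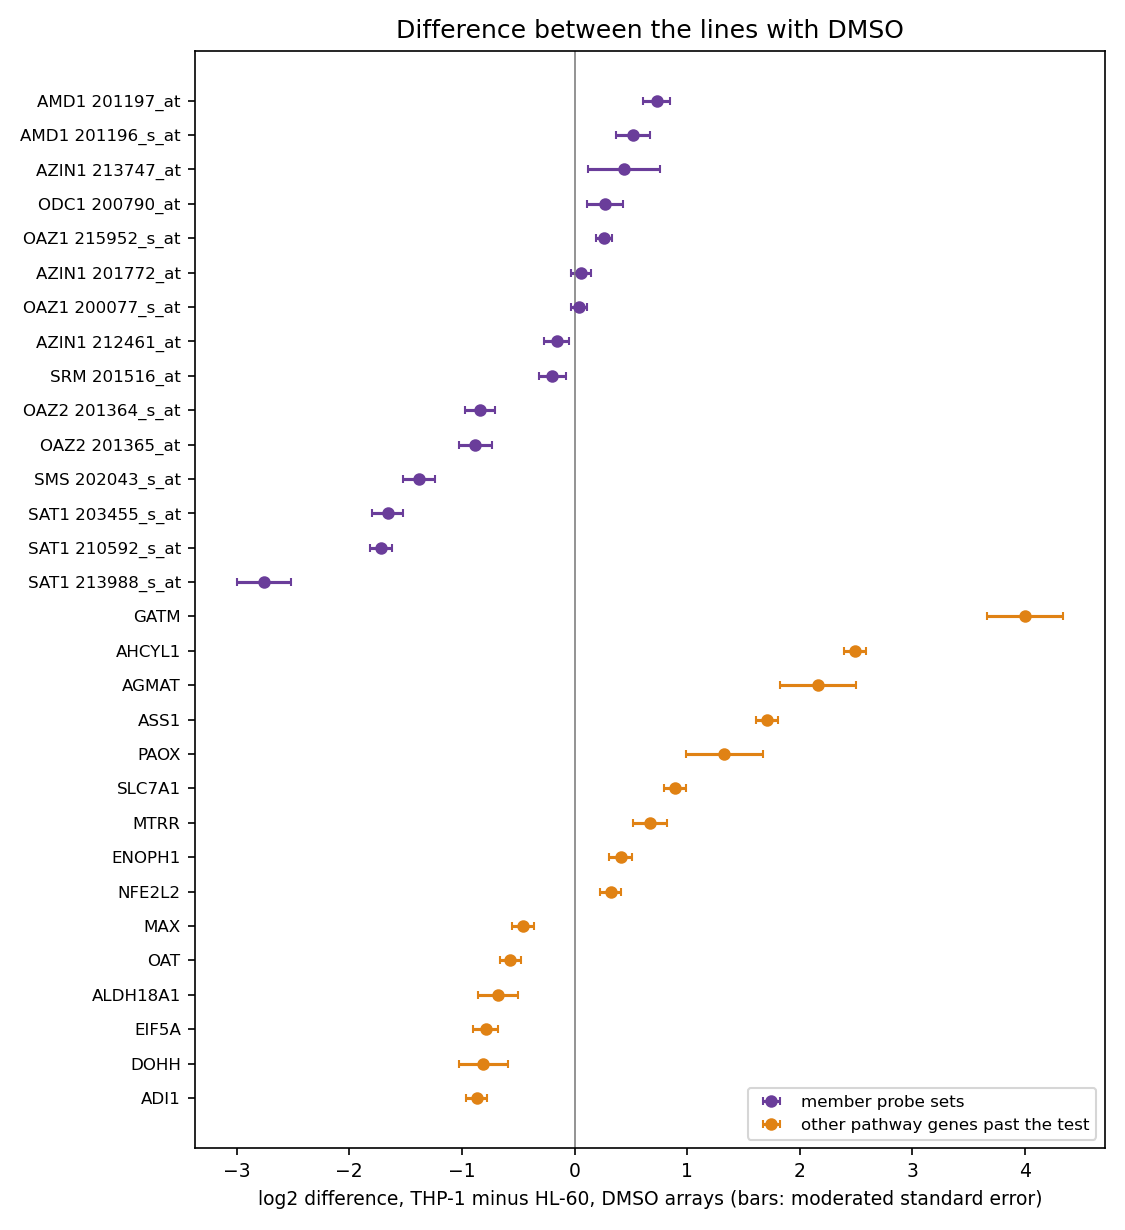
Log2 difference between THP-1 and HL-60 on the DMSO arrays, with bars of 1 moderated standard error: the 15 member probe sets in purple, sorted, and the 15 other pathway genes past the test in orange. SAT1, SMS and OAZ2 lie between -2.76 and -0.84, and GATM lies highest at 4.0.

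Around these 8 genes, 7 lists of 55 pathway genes were examined, of which 47 had a probe set of their own symbol alone, and for each gene the probe set of highest mean log2 intensity stood for it. With limma 0 of 47 passed with diclofenac in THP-1, against 0.167% of all genes, 0 in HL-60, against 0.00836%, and 0 for the difference of the changes, against 0%. At an unadjusted p under 0.05, 16 of 47 differed in THP-1 (7 higher, 9 lower) among 11.8% of all genes, and 5 in HL-60 (all higher) among 4.5%. For the difference of the changes 8 did, among 7.39%. The median log2 change of the 47 genes was -0.08 in THP-1 and 0.02 in HL-60, against -0.01 and 0.00 over all genes. Without THP-1 DMSO replicate 1, which leaves the array that stood apart as the control, 18 of the 47 passed in THP-1 and 13 for the difference, but so did 6892 and 4042 of all probe sets.

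In THP-1 the largest log2 changes among these genes were those of ZFP36, OAZ3 and PPARG, and none passed. ZFP36, which binds AU-rich mRNAs, read 942.3 and 737 with diclofenac, against 493.3 and 106.9 with DMSO, a change of 1.87 ± 0.64 that was 0.65 without DMSO replicate 2. The testis antizyme OAZ3 read 35.2 and 40.1 with diclofenac, not above background, against 45.1 and 483.6 with DMSO. Its level with DMSO thus rested on replicate 2, without which the change was -0.19. PPARG, a nuclear receptor of fat metabolism, was more even: it read 682.3 and 813.9 with diclofenac, against 304.3 and 389 with DMSO, a change of 1.14 ± 0.22 (limma adjusted p = 0.14), and of 1.09 without that replicate. In HL-60 PPARG changed by 0.27 ± 0.22.

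In HL-60 the largest changes were those of ASS1, ATP13A2 and GOT1. ASS1, which makes argininosuccinate on the way to arginine, read 2861.6 and 3271 in HL-60 with diclofenac, against 1522 and 1735.6 with DMSO, and 4652.3 and 4519.4 in THP-1 with diclofenac, against 5590.1 and 4353 with DMSO. The HL-60 groups were apart. The THP-1 groups overlapped on the deposited scale and were apart after normalization, with diclofenac lower. The changes were 0.86 ± 0.10 in HL-60 (limma adjusted p = 0.081) and -0.29 ± 0.10 in THP-1 (adjusted p = 0.39), and their difference of -1.16 had an adjusted p of 0.13. In HL-60 ATP13A2, a lysosomal exporter of polyamines, changed by 0.67 ± 0.34 and the transaminase GOT1 by 0.48 ± 0.28.

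Genes next to SAT1 in polyamine breakdown and transport gave no call with diclofenac. The spermine oxidase SMOX changed by 0.17 ± 0.32 in THP-1 (0.68 without DMSO replicate 2) and by -0.19 ± 0.32 in HL-60. PAOX, which oxidises the products of SAT1, changed by -0.12 ± 0.34 and 0.04 ± 0.34, and its other probe set by 0.46 and -0.71. Without DMSO replicate 2 the THP-1 change of that other probe set was -0.28. SLC3A2, a membrane protein reported to take part in export of acetylated polyamines, read 1123.5 and 1041.5 in THP-1 with diclofenac, against 687 and 654.7 with DMSO. Its groups were apart, with a change of 0.66 ± 0.15 (limma adjusted p = 0.21), against 0.25 ± 0.15 in HL-60. The transporter ATP13A3 changed by 0.58 ± 0.22 in THP-1, but by 0.24 without DMSO replicate 2. SAT2 had no probe set of its own symbol alone.

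The suppliers and users of polyamine precursors likewise gave no call. ARG2, the arginase that forms ornithine, changed by -0.81 ± 0.35 in THP-1 (-0.36 without DMSO replicate 2) and by -0.33 ± 0.35 in HL-60. Its other probe set, above background on 4 arrays, went the other way, by 0.57 in THP-1 (-0.05 without that replicate) and 0.33 in HL-60. MAT2A, which makes S-adenosylmethionine, changed by 0.09 ± 0.10 and -0.06 ± 0.10, and AHCY, which clears the product of its use, by -0.32 ± 0.12 and -0.03 ± 0.12. EIF5A, the protein that carries hypusine made from spermidine, changed by -0.31 ± 0.11 in THP-1 and -0.08 ± 0.11 in HL-60. The other EIF5A probe sets changed by -0.39 and 0.02 in THP-1, and by -0.3 and -0.35 without DMSO replicate 2. DHPS, the first hypusine enzyme, changed by 0.79 ± 0.52 in THP-1 and by -0.18 without DMSO replicate 2. The other DHPS probe sets disagreed, at -0.58 and 1.0 in THP-1 and at 0.57 and 0.16 in HL-60. Without DMSO replicate 2 their THP-1 changes were -0.0 and -0.3. MYC, a known activator of ODC1 transcription, changed by -0.25 ± 0.10 and -0.03 ± 0.10, and the stress factor NFE2L2 by 0.22 ± 0.09 and -0.12 ± 0.09.

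Between the lines with DMSO, 15 of the 47 pathway genes passed, 9 higher and 6 lower in THP-1 (31.9%), against 18.6% of all genes (9.29% higher and 9.31% lower). Under median centring 4 were higher and 0 lower, while the number of all probe sets past the test fell from 3396 to 1145. ALDH18A1, DOHH and NFE2L2 no longer passed without THP-1 DMSO replicate 2, whereas MTAP, SMOX and ATP13A3 did. Of the 11 genes of ornithine and arginine supply, 4 were higher and 2 lower. GATM, which frees ornithine while making the creatine precursor, read 1144.3 and 1891.9 in THP-1 with DMSO, against 54.6 and 51.9 in HL-60 with DMSO (log2 difference 4.0 ± 0.34, limma adjusted p = 0.00013), where it was above background on 1 of 2 arrays. A second GATM probe set was not above background in HL-60 with DMSO and at least 10.6-fold higher in THP-1. ASS1 was 3.26-fold higher (adjusted p = 1.7e-05), the arginine importer SLC7A1 1.86-fold (adjusted p = 0.00056) and agmatinase AGMAT 4.45-fold (adjusted p = 0.0034). AGMAT too was above background on 1 of the 2 HL-60 DMSO arrays, its second probe set differed by -0.53, and those of SLC7A1 ranged from -0.41 to 0.89. OAT, which links ornithine to proline and glutamate, was lower by 1.49-fold (adjusted p = 0.0025) and ALDH18A1, which makes their common intermediate, by 1.6-fold (adjusted p = 0.035; -0.68 on the log2 scale, and -0.49 without THP-1 DMSO replicate 2).

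Among 7 genes of S-adenosylmethionine supply 2 were higher in THP-1 and 0 lower. AHCYL1, a relative of AHCY that binds the inositol trisphosphate receptor, read 8758.1 and 6611.9 in THP-1 with DMSO, against 1304.5 and 1635.5 in HL-60 with DMSO (5.6-fold, limma adjusted p = 3.5e-06), and its 4 probe sets differed by 0.86 to 2.53. MTRR, which reactivates methionine synthase, was 1.59-fold higher (adjusted p = 0.019), while its other probe set differed by 0.10. Of 5 methionine salvage genes, which recycle the byproduct of SRM and SMS, ENOPH1 was 1.33-fold higher (adjusted p = 0.021) and ADI1 1.82-fold lower (adjusted p = 0.00043). MTAP, the first enzyme of salvage, was not above background in THP-1 with DMSO and at least 2.27-fold higher in HL-60 with DMSO, with an adjusted p of 0.077. Its log2 difference of -1.60 was -2.22, and passed, without THP-1 DMSO replicate 2. Its 5 probe sets disagreed, with log2 differences from -2.05, which passed, to 0.95. Those above background on 4 arrays were at -1.60, -1.14 and -2.05. The probe set at 0.95 was above background on 7 arrays, and that at 0.25 on 0.

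Of 4 hypusine genes 2 were lower in THP-1: EIF5A by 1.72-fold (limma adjusted p = 0.0022) and the hydroxylase DOHH by 1.75-fold (adjusted p = 0.042). The other probe sets of EIF5A differed by -0.35 and -0.62 log2 units and did not pass. The log2 difference of DOHH was -0.81, and -0.53 without THP-1 DMSO replicate 2, and its other probe sets differed by 0.90 and -0.74. PAOX was not above background in HL-60 with DMSO and at least 1.84-fold higher in THP-1 (adjusted p = 0.034), 1 of 3 genes of breakdown, while its other probe set differed by -0.02. SMOX differed by -0.66 and, without THP-1 DMSO replicate 2, by -1.19. Of 7 transport genes 0 passed, but ATP13A3, at 0.65, was 1.00 and passed without that replicate, and passed with the replicate block. Of 10 regulators the MYC partner MAX was 1.38-fold lower (adjusted p = 0.018) and NFE2L2 1.25-fold higher (adjusted p = 0.044). NFE2L2 differed by 0.27 without THP-1 DMSO replicate 2 and by -0.02 under median centring, and MYC itself by 0.23 ± 0.10 (adjusted p = 0.19). The other probe sets of MAX ranged from -1.29 to 0.49.

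Over the 8 arrays, the genes above background on all of them whose normalized log2 values were most like those of SAT1 203455_s_at, among 5717 compared, were CEBPB and GNG5 (Pearson r = 0.995 each), TFE3 and CDC42EP3 (0.987 each) and MT1H (0.986). Without THP-1 DMSO replicate 2 their correlations were 0.979 to 0.992, and they then ranked 1, 2, 17, 6 and 10 among the genes compared. The arrays share lines and treatments, so these values describe a likeness over 4 groups. CEBPB was higher with diclofenac by 1.17 in THP-1 and 0.39 in HL-60, and its difference between the lines was -1.85. GNG5 differed in the same directions by much smaller amounts, at 0.24, 0.07 and -0.41. For ODC1, whose groups overlapped, the most alike genes were ATP2A2 (0.913), KHNYN (0.893), ST8SIA3 (0.869), MAP4K4 (0.868) and PTPRN (0.866), with 0.809 to 0.875 without that replicate, where they ranked 8, 7, 24, 12 and 23, so none remained among the 5 most alike.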

How the data were processed

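Per the labels' protocols, biotinylated cRNA was made from total RNA for Affymetrix human arrays. The authors deposited 1 linear intensity per probe set and array, and the signal software is not given in the sources used here. Of 22277 probe sets, 62 controls were left out. Groups and replicate numbers came from the sample titles. The deposited intensities were turned to log2(intensity + 50) and quantile normalized, and limma 3.58.1 (R 4.3.3) fitted 4 group means with an intensity trend on all 8 arrays (4 residual and 4.41 prior degrees of freedom). P-values are two-sided and adjusted by Benjamini-Hochberg over 22215 probe sets. Errors of changes are moderated standard errors. The method was tested on simulated data. Genes were named through the platform annotation. The background of an array was the 95th percentile over its 27 probe sets for bacterial RNA. A bound ("at least") sets the brighter group against the lowest signal above background. Promoters came from RefSeq, and 7 of the 8 members had a window that is shown or counted here.

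The members, the pathway lists, the markers and the rule for named genes (all member probe sets, pathway genes past the test, the 3 largest changes per line, a fixed set of enzymes and regulators, and the 5 genes most like SAT1 and ODC1) were chosen with earlier results of these data known. The replicate number was no block in the fit. Alternatives were the deposited scale, median centring, an offset of 16, no trend, leaving out the dimmest 40% of probe sets, each line alone, a replicate block and each array left out. For member genes with several probe sets, the mean change of these was computed too.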

Additional observations from a re-analysis of the deposited data

How the results depend on the processing

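With 2 arrays per group the number of arrays limits precision, and probe sets that bind related transcripts may mix them. Changes of members were recomputed for each probe set and as the mean over the probe sets of a gene. Of these 586 changes, 445 stayed within the spread between replicates and 140 moved by more. Only 1 changed sign where it had passed: OAZ1 215952_s_at between the lines, at -0.07 under median centring. In THP-1 the number of member probe sets past the threshold was 2, and 0 with each line fitted alone, under median centring or with no intensity trend. It ranged from 0 to 4 when single arrays were left out, with 4 without THP-1 DMSO replicate 1 and 0 without any 1 of the HL-60 or THP-1 diclofenac arrays. Without THP-1 DMSO replicate 1 the numbers rose for the difference of the changes, where they ranged from 0 to 3 for members and 0 to 13 for pathway genes, and for pathway genes in THP-1, from 0 to 18. In HL-60 1 pathway gene, ASS1, passed with the dimmest probe sets left out, and the range over left-out arrays was 0 to 1, with 1 without THP-1 DMSO replicate 1. Between the lines, 9 member probe sets passed, 4 under median centring and 6 to 9 with an array left out. Of pathway genes 15 passed, 4 under median centring, 9 without the trend and 8 to 26 with an array left out (26 without THP-1 DMSO replicate 1, and 8 or 9 without either HL-60 DMSO array). Over all probe sets, 30 passed in THP-1, 0 under median centring or without the trend, 1 with the line alone, 42 with an offset of 16, 51 on the deposited scale, 53 without the dimmest probe sets and 0 to 6892 with an array left out. The 6892 were those without THP-1 DMSO replicate 1, where the lone replicate 2 is assumed to vary like the other groups, and without replicate 2 the number was 60. In HL-60 1 passed, and 0 to 5 under the other settings or 0 to 11 with an array left out. For the difference of the changes 1 passed, and 0 to 2, or 0 to 4042. Between the lines 3396 passed, 1145 under median centring and 1701 to 9089 with an array left out. The cause of these differences was not tested. With the replicate number as a block, the members past the threshold were 0 in HL-60, 3 in THP-1, 0 for the difference and 8 between the lines, and pathway genes 0, 0, 0 and 13. The deviations of same-numbered arrays from their group means correlated at -0.01 in THP-1 and at -0.00 in HL-60. Same-numbered arrays thus showed no shared deviation, which cannot tell whether the cultures were paired.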
